A study of Drosophila melanogaster with 4 samples.

Results

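The genes described here are the small RNA genes among those the authors listed as changed in starved Drosophila S2 cells: every listed gene whose symbol starts with tRNA, snRNA, scaRNA or mir-. They number 42 of the 2049 listed genes, with 21 tRNA genes, 3 snRNA genes, 2 scaRNA genes and 16 microRNA genes, while 0 listed genes carry the prefixes of 5S rRNA, 7SL or 7SK. Membership was decided by the symbol and not by any count. S2 is an established Drosophila line of embryonic origin with features of blood cells. Cells were kept for 4 h either in Schneider's medium, the rich growth medium with amino acids, or in Krebs Ringer Bicarbonate (KRB), a buffered salt solution without amino acids that is also richer in sodium. Each medium had 2 replicate libraries of rRNA-depleted total RNA, and no genetic change or further agent was part of these 4 samples. Loss of nutrients and rise of salt came together, so their parts in any difference cannot be told apart.

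A tRNA carries an amino acid to the ribosome and reads the codon through its anticodon, and most tRNAs are made from many near-identical gene copies by RNA polymerase III, whose activity depends on nutrients in yeast, flies and mammals. The snRNAs U2 and U5 are the RNA cores of spliceosome particles: U2 pairs with the branch point of an intron, and U5 holds the exons that are joined. The scaRNAs are guides of the Cajal body that direct chemical modification of snRNAs. MicroRNAs are cut from hairpins in longer transcripts, often from within another gene, and lower the output of matching mRNAs once loaded on Argonaute.

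The table of counts holds only genes that had passed an unadjusted p of 0.05 and an absolute log2 fold change of 1 in these same libraries, so a call made on them again is not independent evidence. Reads on the listed genes were 1108029 and 2414465 in Schneider's and 1957713 and 2801713 in KRB, which are sums over the selected genes and not library depths. Libraries were scaled by TMM (trimmed mean of M-values) on these selected genes, which set the effective size of the second Schneider's library at 2.05 times the first, and of the KRB libraries at 0.903 and 1.20 times it. Of 1756 listed genes with enough reads to test, 42.3% were called higher and 53.6% lower in KRB at an adjusted p under 0.05 (edgeR quasi-likelihood test, Benjamini-Hochberg over all 1756), with a median log2 fold change of -0.92. Other scalings moved that median by between -0.97 (total counts) and 0.74 (relative log expression), and where such a scaling, DESeq2 or the loss of a library ends the call of a named small RNA gene, this is given beside it. Of the S2-type blood cell markers, 2 of 9 were listed, and of 12 markers of other cells 1 was, so the cell type could not be checked on this selection.

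The small RNA genes were thinly counted. Their median of the mean read count was 10.1 against 76.2 over all listed genes, 21 of the 42 had a mean under 10 reads, and together they took between 0.0650% and 0.0864% of the listed reads. Of the 42 genes, 27 could be tested, and 11 were called higher, 15 lower and 1 was not called. Since 95.9% of all tested genes were called in one direction or the other, that count says nothing particular about small RNA genes, and 16 of the 27 passed the filter only through the medium in which they were high. Read library by library after scaling, 19 genes lay higher in both KRB libraries than in both Schneider's libraries, 22 lay lower, and 1 overlapped. The same reading over all listed genes gives 47.4% above and 51.5% below, 98.9% without overlap. In bulk RNA, fewer cells of a kind and less RNA per cell cannot be told apart. The paper reports that RNA levels as a whole fell in KRB, while counts here are relative to the other listed genes. Amounts of RNA per cell were therefore not measured.

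**Figure D1:**
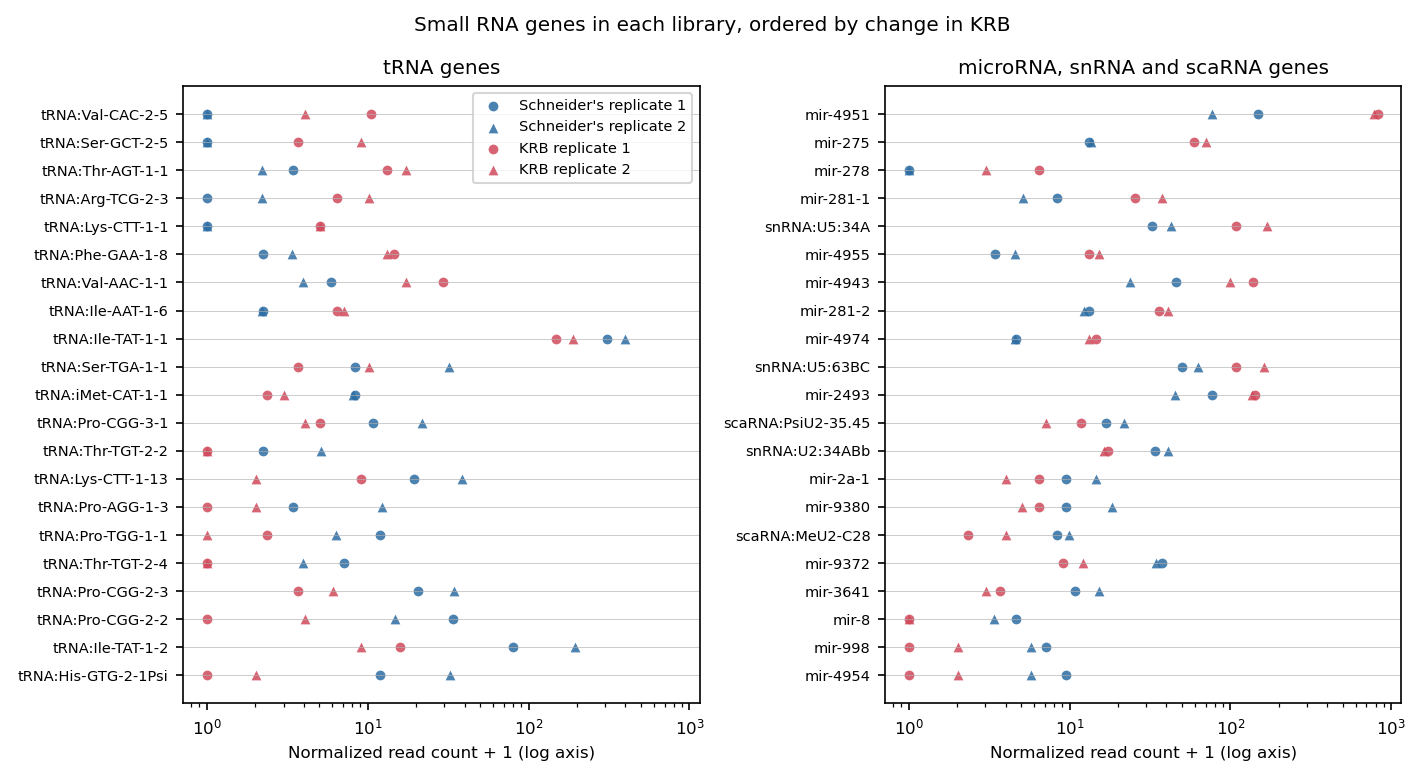
Normalized read count plus 1 on a log axis for each of the 42 small RNA genes, with tRNA genes on the left and microRNA, snRNA and scaRNA genes on the right, 1 row a gene and 1 point a library (blue Schneider's, red KRB, circle replicate 1, triangle replicate 2). A point at the left edge is a library with 0 reads. The blue and red points separate in 41 of 42 rows and overlap in tRNA:Ser-TGA-1-1.

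The classes differed in direction. Summed over the 21 tRNA genes, normalized counts were 524 and 799 in Schneider's and 262 and 296 in KRB, a mean of 662 ± 195 against 279 ± 23.8 (SD, n = 2), 2.37-fold lower in KRB. The 16 microRNA genes went from 387 and 268 to 1276 and 1205, or 3.79-fold higher, and the 3 snRNA genes from 114 and 143 to 230 and 343, or 2.23-fold higher. The 2 scaRNA genes summed to 23.2 and 29.7 in Schneider's and to 12.2 and 9.16 in KRB. These are reads on annotated genes, relative to the other listed genes. Reads are 75 nt long and the exons of a tRNA gene 72 to 82 nt. Whether mature RNA or longer transcripts were counted was not tested. In each class the libraries of the media did not overlap after TMM scaling. As shares of all listed reads the snRNA sums did overlap, at 0.00839% and 0.00998% in Schneider's and 0.00868% and 0.0120% in KRB. With 2 against 2 an exact permutation test cannot give a two-sided p under 0.333, so the sums were not tested. Their size depends on the scaling: from total counts to relative log expression factors, the log2 ratio of KRB to Schneider's ran from -2.22 to -0.49 for tRNA, 0.17 to 1.91 for snRNA, -2.28 to -0.57 for scaRNA and 0.94 to 2.64 for microRNA genes, with no change of sign.

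**Figure D2:**
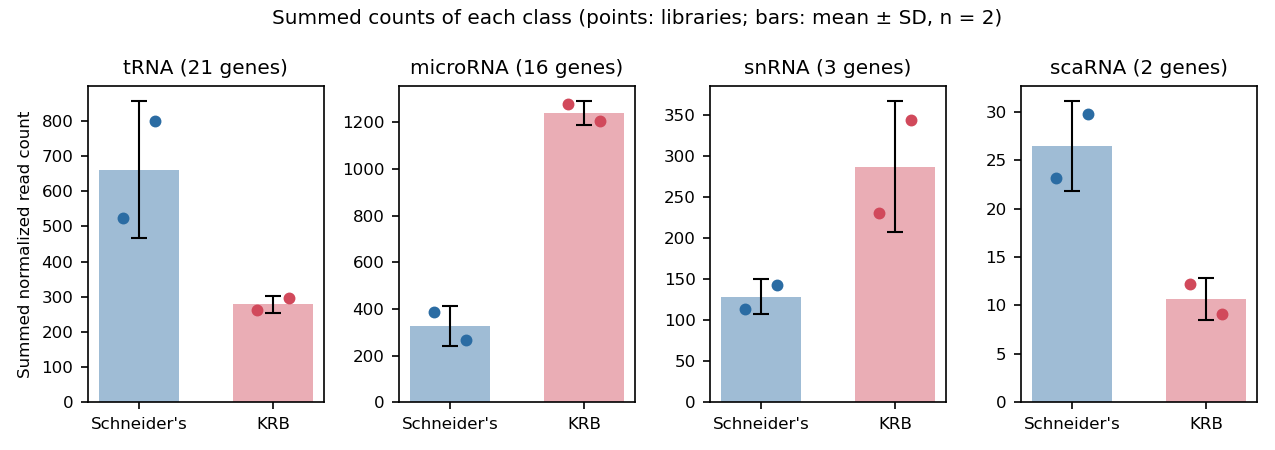
Summed normalized read count of each class of small RNA gene, with bars for the mean and SD of 2 libraries and points for the libraries, on axes that start at 0 and differ in range. The tRNA and scaRNA sums were lower in KRB and the microRNA and snRNA sums higher.

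Single genes carried much of these sums. The Ile-TAT pair took most tRNA reads, and without it the other 19 tRNA genes summed to 137 and 208 in Schneider's and to 101 and 101 in KRB, 1.70-fold lower. Without mir-4951 the other 15 microRNA genes summed to 241 and 192 in Schneider's and 451 and 428 in KRB, 2.03-fold higher with TMM. As shares of all listed reads these 15 genes took 0.0178% and 0.0134% in Schneider's and 0.0170% and 0.0150% in KRB. On that scale the media overlapped, so the rise of the 15 depends on the scaling. A ratio of reads within a library does not depend on how libraries are scaled. There were 0.739 and 0.335 microRNA reads per tRNA read in Schneider's, against 4.86 and 4.07 in KRB. With mir-4951 and Ile-TAT both set aside, the ratios were 1.76 and 0.926 in Schneider's and 4.44 and 4.25 in KRB. The media did not overlap in either ratio, and no scaling changes that. Every gene in these sums was listed for having changed in the same libraries, so the ratios are not independent evidence.

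Among tRNA genes, both copies that read isoleucine codons with the anticodon TAT were lower in KRB. These are the only annotated genes with that anticodon and lie 762 nt apart on chromosome arm 3L. tRNA:Ile-TAT-1-1 (FBgn0052480, BDGP6 chr3L:769503-769600) had 252 and 670 reads in Schneider's and 108 and 184 in KRB. tRNA:Ile-TAT-1-2 (FBgn0052481, chr3L:770363-770462) had 65 and 325 reads in Schneider's against 11 and 8 in KRB. Its reads in KRB lay far under those of either Schneider's library, and the decline on the log2 scale was -3.61 (SE 0.58, adjusted p = 0.0023, edgeR). For the first copy it was -1.08 (SE 0.23, adjusted p = 0.0054), a call that was lost with relative log expression factors (-0.33, adjusted p = 0.248), with DESeq2 (adjusted p = 0.460) and without KRB replicate 1 (-0.73, adjusted p = 0.0636).

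Within the Ile-TAT pair the second copy lost ground. It supplied 20.5% of the pair's reads (95% exact binomial interval 16.2% to 25.4%) and 32.7% (29.8% to 35.7%) in the Schneider's libraries. In KRB its share was 9.24% (4.71% to 15.9%) and 4.17% (1.82% to 8.04%), below the Schneider's intervals. These intervals cover counting error only, and reads that match both copies could have been assigned to either, which the sources used here do not describe. Both genes carry an intron, of 24 nt in the first copy and 26 nt in the second, that is spliced from the precursor before the tRNA can work. The annotation gives an intron to 16 tRNA genes in all, and the other kinds, 4 Leu-CAA and 10 Tyr-GTA genes, were not listed.

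All 5 listed proline tRNA genes, of 17 annotated, lay lower in KRB, as did 51.5% of all genes on this list of changed genes. Summed, the 5 proline genes had 75.7 and 84.5 normalized counts in Schneider's and 8.12 and 12.2 in KRB. The means were 80.1 ± 6.18 and 10.2 ± 2.89 (SD, n = 2). tRNA:Pro-CGG-2-2 (FBgn0052173, chr3L:17339909-17339980) had 27 and 23 reads in Schneider's and 0 and 3 in KRB. tRNA:Pro-CGG-2-3 (FBgn0052200, chr3L:18618390-18618461) went from 16 and 56 reads to 2 and 5. These copies lie on the same arm at distant sites, and neither KRB library reached the lower Schneider's one. tRNA:Pro-CGG-3-1 (FBgn0025118, chrX:3827622-3827693) had 8 and 35 reads in Schneider's and 3 in each KRB library.

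The log2 fold changes of the 3 Pro-CGG genes were -3.59 (SE 0.90), -2.72 (SE 0.52) and -2.18 (SE 0.58), with adjusted p of 0.0098, 0.0039 and 0.0118 (edgeR). Summing the reads of the 3 genes gave -2.82 (SE 0.38, adjusted p = 0.0015, edgeR) under the main settings, the only ones used for the sum. The sum removes doubt over which of these 3 copies a read came from. It does not do so for unlisted copies, as 5 Pro-CGG genes are annotated. All 3 genes passed the filter only through Schneider's. Of the single calls, relative log expression factors ended those of Pro-CGG-2-2 (adjusted p = 0.0532) and Pro-CGG-3-1 (adjusted p = 0.0754), and DESeq2 ended all 3. Pro-CGG-2-2 also lost its call without KRB replicate 1 (-2.65). For Pro-CGG-3-1 it was lost without Schneider replicate 2 (adjusted p = 0.0661), without KRB replicate 1 (0.0754) and without KRB replicate 2 (0.0971). The remaining proline genes, read here after their values were seen, were tRNA:Pro-TGG-1-1 with 9 and 9 reads against 1 and 0, and tRNA:Pro-AGG-1-3 with 2 and 19 against 0 and 1, and neither had enough reads to test.

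The 2 listed lysine tRNA genes went in opposite directions, and a serine gene was the 1 tested gene not called. tRNA:Lys-CTT-1-13 (FBgn0052272, chr3L:3096891-3096963) passed the filter only through Schneider's. It had 15 and 63 reads in Schneider's and 6 and 1 in KRB, a log2 change of -2.76 (SE 0.76, adjusted p = 0.0134, edgeR). That call was lost with relative log expression factors (adjusted p = 0.0603), with DESeq2 (adjusted p = 0.191), without Schneider replicate 2 (adjusted p = 0.065) and without KRB replicate 2 (adjusted p = 0.0783). The other listed copy with the same anticodon, tRNA:Lys-CTT-1-1, ran the opposite way with 0 and 0 reads in Schneider's and 3 and 4 in KRB. Against a floor of 3 reads a library its KRB mean was at least 1.49-fold higher. The first KRB library was itself at that floor, so the bound rests on the mean alone. tRNA:Ser-TGA-1-1 (FBgn0050201, chr2R:23072019-23072100) had 6 and 52 reads against 2 and 9, and with the second KRB library above the first Schneider's library its log2 difference of -1.71 (SE 0.81, adjusted p = 0.0780) was not called. It passed the test with total counts (adjusted p = 0.0223) and with replicate number as a block (-1.67, adjusted p = 0.0023), though no pairing is stated. Without Schneider replicate 1 it also passed (-2.28).

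The tRNA row with the largest difference was an annotated pseudogene. tRNA:His-GTG-2-1Psi (FBgn0011877, chr2R:12336733-12336804) had 9 and 53 reads in Schneider's and 0 and 1 in KRB. With 1 read in KRB, the ratio of summed reads, KRB over Schneider's and scaled for library size, was 0.0234 with a 95% counting interval of 0.000584 to 0.135. Its fitted log2 change was -5.03 (SE 1.01, adjusted p = 0.0044, edgeR) and its call held under each of 8 settings that kept all 4 libraries. Those settings refit the same libraries and add no independent evidence, and this gene passed the filter only through Schneider's. The initiator gene tRNA:iMet-CAT-1-1, whose product starts every protein and which is 1 of 6 annotated copies, also passed the filter only through Schneider's. It had 6 and 12 reads against 1 and 2 (log2 -1.98, SE 0.53, adjusted p = 0.0123, edgeR). Its call was lost with upper-quartile factors (adjusted p = 0.0629), relative log expression factors (0.175) and DESeq2 (0.572), and without KRB replicate 1 (0.139) or KRB replicate 2 (0.0943).

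The 2 listed valine tRNA genes, of 15 annotated, lay higher in KRB, as did 47.4% of all listed genes. tRNA:Val-AAC-1-1 (FBgn0012011, chr3R:16321690-16321762) had 4 and 5 reads in Schneider's and 21 and 16 in KRB, and the log2 change was 2.54 (SE 0.51, adjusted p = 0.0043, edgeR). tRNA:Val-CAC-2-5 had 0 and 0 reads in Schneider's and 7 and 3 in KRB. Its KRB mean was at least 2.30-fold higher, though the second KRB library was itself at the floor of 3 reads. For each of them the lower KRB value exceeded the higher Schneider's value. The only other tRNA gene called higher was tRNA:Thr-AGT-1-1, with 2 and 2 reads against 9 and 16 (log2 3.06, SE 0.52, adjusted p = 0.0027, edgeR). Thr-AGT-1-1 and Val-AAC-1-1 passed the filter only through KRB, the medium in which they were high. The 2 listed Thr-TGT genes, 5390 nt apart on 2R, had 0 reads in both KRB libraries against 5 and 5 and 1 and 7 in Schneider's.

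Grouped by place in the genome, the listed tRNA genes differed in direction. Of 10 tRNA genes that overlap no other annotated gene, 8 lay below, 1 above and 1 overlapped. Of the 11 inside or across another gene, 7 lay above and 4 below. Over all listed genes 47.4% lay above and 51.5% below. The 6 that lie in an intron of a gene on the opposite strand all lay above: Thr-AGT-1-1 in tai, Val-AAC-1-1 and Phe-GAA-1-8 in Sulf1, Arg-TCG-2-3 in pyd, Val-CAC-2-5 in Naam, and Ile-AAT-1-6 in ATP8A. The grouping was made after the values were seen, the 6 genes have between 0 and 21 reads in any library, and 2 of them sit 214 nt apart in the same intron-bearing gene, so it is given as a description. Of these 6 genes, 2 had enough reads to test. The remaining low counts include 1 and 4 reads in Schneider's against 10 and 12 in KRB on Phe-GAA-1-8, and 0 and 2 against 4 and 9 on Arg-TCG-2-3. tRNA:Ser-GCT-2-5, the 1 gene that lay above while overlapping no other gene, had 0 and 0 reads in Schneider's and 2 and 8 in KRB, and no fold is given since the first KRB library lies under the floor of 3 reads.

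Where the gene around a tRNA gene was itself listed, the pair did not always move alike. Taiman (tai), a coactivator of the ecdysone receptor, had 3734 and 8046 reads in Schneider's and 9721 and 14491 in KRB (log2 1.58, SE 0.17), and Thr-AGT-1-1 lay higher with it. The ecdysone receptor gene EcR, which holds Lys-CTT-1-1 in an intron of its own strand, also rose (log2 1.66, SE 0.16, adjusted p = 8.1e-04), and Cht7, a chitinase-family gene around Lys-CTT-1-13, was called lower (log2 -1.53, SE 0.30, adjusted p = 0.0041), though not with relative log expression factors (-0.81, adjusted p = 0.0779) or DESeq2 (adjusted p = 0.199). In 2 cases the directions were opposite. The gene ec, which encodes a ubiquitin-protease-like protein, rose from 595 and 987 to 1919 and 1500 reads (log2 1.65, SE 0.28) while Pro-CGG-3-1 within it fell, so that reads on the tRNA gene per 100 reads on ec went from 1.34 and 3.55 to 0.156 and 0.200. ATP8A, listed under the name CG42321 and encoding a lipid flippase, was called lower (log2 -0.90, SE 0.18, adjusted p = 0.0040) while Ile-AAT-1-6 had 1 and 2 reads in Schneider's and 4 and 6 in KRB. The gene pyd, which encodes a junction scaffold and holds Arg-TCG-2-3, had 1593 and 2763 reads in Schneider's and 2995 and 4509 in KRB (log2 1.27, SE 0.17). The calls of ec and pyd were lost with total counts (adjusted p = 0.0926 and 0.151), and that of ATP8A (CG42321) with upper-quartile factors (0.0535), relative log expression factors (0.437) and DESeq2 (0.620). The libraries came from a strand-marking kit, but whether counting used strand is not given in the sources used here, and whether intronic reads of the surrounding genes entered the tRNA counts was not tested.

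The snRNA genes showed U5 and U2 going in opposite directions. snRNA:U5:34A (FBgn0003935, chr2L:13244848-13244974) had 26 and 70 reads in Schneider's and 79 and 165 in KRB, a log2 change of 1.89 (SE 0.33, adjusted p = 0.0029, edgeR). snRNA:U5:63BC (FBgn0003938, chr3L:3090801-3090923) had 40 and 104 reads against 79 and 157, a change of 1.26 (SE 0.30, adjusted p = 0.0083) that was not called with total counts (0.28, adjusted p = 0.386). After scaling, the media did not overlap for either U5 gene, although the raw counts of the second Schneider's library exceed those of the first KRB library for U5:63BC. These are 2 of 7 annotated U5 genes, and their own balance was near even, with U5:34A at 39.4% and 40.2% of the pair's reads in Schneider's and 50% and 51.2% in KRB.

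snRNA:U2:34ABb (FBgn0004192, chr2L:13215839-13216030), 1 of 6 annotated U2 genes, had 27 and 67 reads in Schneider's and 12 and 15 in KRB. Its log2 change was -1.22 (SE 0.34, adjusted p = 0.0137, edgeR), and it lies 28817 nt from U5:34A on the same arm. The call was lost with relative log expression factors (-0.47, adjusted p = 0.252), upper-quartile factors (-0.76, adjusted p = 0.0684), DESeq2 (adjusted p = 0.628), and without Schneider replicate 2 (adjusted p = 0.0512), KRB replicate 1 (0.0844) or KRB replicate 2 (0.0719). The ratio of U5 to U2 reads within a library does not depend on scaling. It was 2.44 and 2.60 in Schneider's and 13.2 and 21.5 in KRB, with no overlap between the media. The U5 and U2 genes were listed for having changed in these same libraries. With opposite directions, a separation of their ratio follows from that selection and is not independent evidence.

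Neighbouring transcripts did not move with the U5 genes. Cht7, on the opposite strand 61 nt from U5:63BC, fell from 108 and 163 to 32 and 35 reads, and the antisense RNA gene CR45330, 123 nt from U5:34A on the same strand, had 26 and 38 reads against 9 and 14 (adjusted p = 0.0396). Both differences have the opposite sign to those of the U5 genes. The call of CR45330 was lost with upper-quartile factors (adjusted p = 0.221), relative log expression factors (0.572) and DESeq2 (0.756), and without Schneider replicate 1 (0.109), KRB replicate 1 (0.238) or KRB replicate 2 (0.121).

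Both listed scaRNA genes, of 17 annotated, are named as guides for U2 and had fewer normalized counts in KRB. Of all listed genes, 51.5% lay lower in both KRB libraries. The pseudouridylation guide FBgn0263479 (chr2R:5765180-5765319), within an intron of the nucleoporin gene Gp210, had 13 and 35 reads in Schneider's and 8 and 6 in KRB (log2 -1.17, SE 0.43, adjusted p = 0.0371, edgeR). scaRNA:MeU2-C28 (FBgn0065057, chrX:21051686-21051734), a methylation guide within an intron of Stt3A, which encodes a subunit of oligosaccharyltransferase, had 6 and 15 reads against 1 and 3 (log2 -1.79, SE 0.54, adjusted p = 0.0183). The call for the pseudouridylation guide FBgn0263479 was lost with upper-quartile factors (adjusted p = 0.153), relative log expression factors (adjusted p = 0.403) and DESeq2 (adjusted p = 0.739). It was also lost without Schneider replicate 2 (-0.94, adjusted p = 0.147), KRB replicate 1 (-1.40, adjusted p = 0.0791) or KRB replicate 2 (-0.75, adjusted p = 0.230). For scaRNA:MeU2-C28 it was lost with the same 3 settings (adjusted p = 0.068, 0.199 and 0.613) and without Schneider replicate 2 (0.0852), KRB replicate 1 (0.180) or KRB replicate 2 (0.0731). Both scaRNA genes passed the filter only through Schneider's. Neither Gp210 nor Stt3A was listed, and their values were not analysed here.

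**Figure D3:**
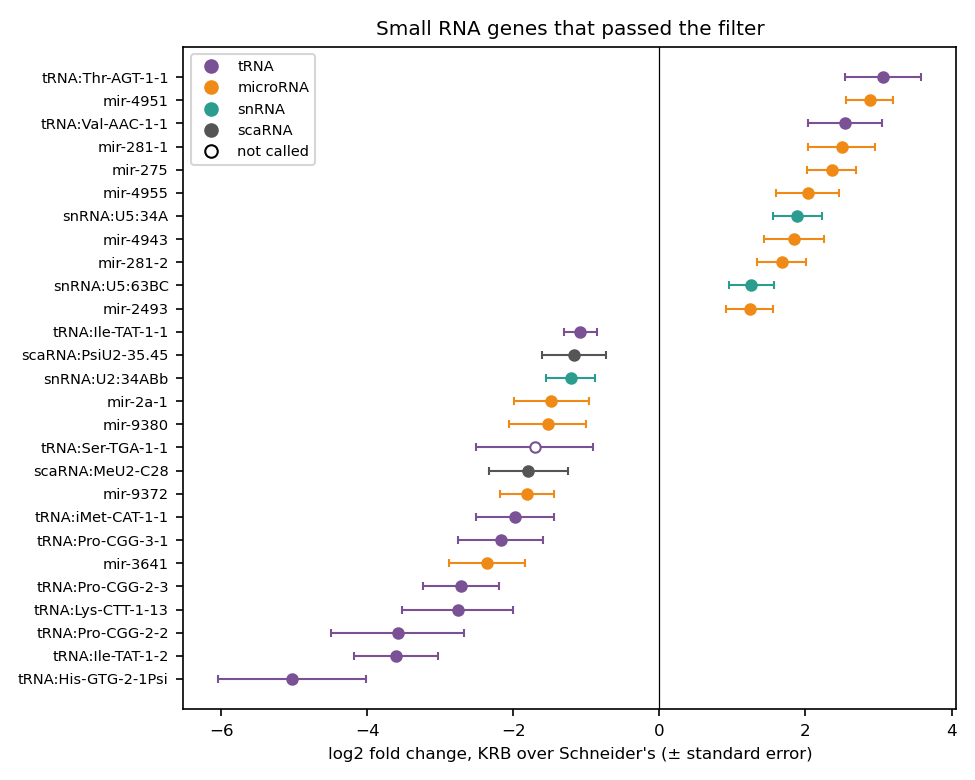
Log2 fold change in KRB over Schneider's with its standard error for the 27 small RNA genes that could be tested, coloured by class, with an open circle for the gene not called. Values run from -5.03 (tRNA:His-GTG-2-1Psi) to 3.06 (tRNA:Thr-AGT-1-1).

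Among microRNA genes, 7 of 11 tested were called higher and 4 lower, against 42.3% and 53.6% of all tested genes. With 95.9% of all tested genes called, that all 11 were called says nothing particular about them. Of the 11, 5 passed the filter only through the medium in which they were high. These were mir-9372, mir-9380, mir-3641 and mir-2a-1 through Schneider's and mir-4955 through KRB. The most counted microRNA gene was mir-4951 (FBgn0263537, chr3R:21316716-21316865), with 120 and 127 reads in Schneider's and 610 and 763 in KRB. Its normalized counts were 111 ± 50.2 and 801 ± 34.5 (SD, n = 2), and its log2 change of 2.88 (SE 0.33, adjusted p = 0.0010, edgeR) kept its call without any single library, at between 2.45 and 3.40, and under each scaling and tool run on all 4 libraries, at between 1.89 (total counts) and 3.59 (relative log expression factors). The gene lies in an exon of Hsromega, a long non-coding RNA gene induced by heat and other stresses whose nuclear transcript gathers RNA-binding proteins into omega speckles. Hsromega itself had 7049 and 8903 reads in Schneider's and 26650 and 35004 in KRB, a log2 change of 2.37 (SE 0.27, adjusted p = 0.0011).

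Reads on mir-4951 and on Hsromega can be set against each other in each library. Per 100 Hsromega reads there were 1.70 and 1.43 reads on mir-4951 in Schneider's and 2.29 and 2.18 in KRB. Per kilobase of exon, the mean normalized count of Hsromega was 320 in Schneider's and 1651 in KRB, and that of mir-4951 was 740 and 5339. The region of the microRNA was therefore counted more densely than the whole of its host in both media, and its ratio to the host was higher in both KRB libraries. Reads here are 75 nt long and the microRNA genes span 61 to 169 nt, while a mature microRNA is far shorter than a read, so what was counted is hairpin, primary transcript or host RNA, and mature microRNA was not measured.

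mir-275 (FBgn0262453, chr2L:7425795-7425892) had 10 and 21 reads in Schneider's and 43 and 68 in KRB (log2 2.36, SE 0.33, adjusted p = 0.0017, edgeR). It lies in an exon of the non-coding gene CR43857, which had 168 and 255 reads against 564 and 793 (log2 2.15, SE 0.21, adjusted p = 8.9e-04). Scaled for length they were nearly equal, with 126 and 650 normalized counts per kilobase for mir-275 and 137 and 602 for CR43857. The reads on mir-275 per 100 on CR43857 overlapped between media, at 5.95 and 8.24 in Schneider's and 7.62 and 8.58 in KRB.

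The copies mir-281-1 and mir-281-2 stand 128 nt apart on 2R, in an exon of the non-coding gene CR46194 and an intron of Oda, whose product is the antizyme that holds back ornithine decarboxylase and so polyamine synthesis. mir-281-1 (FBgn0286006, chr2R:12170373-12170462) had 6 and 7 reads in Schneider's and 18 and 36 in KRB (log2 2.50, SE 0.46, adjusted p = 0.0033, edgeR). mir-281-2 (FBgn0286007, chr2R:12170153-12170244) had 10 and 19 reads against 26 and 39 (log2 1.67, SE 0.34, adjusted p = 0.0044), and this second call was lost with total counts (0.70, adjusted p = 0.0956). Both genes around them rose as well. Oda went from 5065 and 8840 to 8931 and 15409 reads (log2 1.28, SE 0.20), and CR46194 from 120 and 274 to 264 and 409 (log2 1.32, SE 0.19), and neither was called with total counts (adjusted p = 0.164 and 0.143). The 4 ratios of a mir-281 gene to a surrounding gene were each higher in both KRB libraries than in both Schneider's libraries.

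mir-4943 (FBgn0263555, chr2L:16528375-16528491) had 37 and 38 reads in Schneider's and 102 and 96 in KRB (log2 1.84, SE 0.41, adjusted p = 0.0062, edgeR), and was not called with total counts (0.86, adjusted p = 0.126). It lies in a UTR of CG5953, which had 933 and 1297 reads against 1990 and 2042 (log2 1.32, SE 0.24, not called with total counts, adjusted p = 0.276). mir-2493 (FBgn0262315, chr3R:15130754-15130859), in an intron of the unlisted gene CG42788, had 62 and 74 reads against 105 and 132 (log2 1.23, SE 0.32, adjusted p = 0.0109). That call was lost with total counts (0.25, adjusted p = 0.518) and narrowly without KRB replicate 2 (1.29, adjusted p = 0.0516).

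Of the microRNA genes called lower, mir-9372 (FBgn0283549, chrX:633691-633751) was the most counted, with 30 and 56 reads in Schneider's and 6 and 11 in KRB (log2 -1.82, SE 0.37, adjusted p = 0.0045, edgeR). It lies in a coding exon of Dredd, the caspase of the Imd immune pathway, which had 334 and 598 reads against 119 and 169 (log2 -1.19, SE 0.19, adjusted p = 0.0022). The call of mir-9372 was lost with relative log expression factors (-1.08, adjusted p = 0.0529) and DESeq2 (-1.10, adjusted p = 0.308), as was that of Dredd (adjusted p = 0.117 and 0.266). mir-9380 (FBgn0283560, chr3R:8348702-8348778) had 7 and 29 reads against 4 and 4 (log2 -1.53, SE 0.53, adjusted p = 0.0299), and lies across from a coding exon of CG7352 on the opposite strand, with 77 and 179 reads against 20 and 37 there. It lost its call under upper-quartile factors (adjusted p = 0.0971), relative log expression factors (0.246) and DESeq2 (0.663), and without Schneider replicate 2 (-0.86, adjusted p = 0.252), KRB replicate 1 (-1.52, adjusted p = 0.132) or KRB replicate 2 (-1.28, adjusted p = 0.185).

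The 8 microRNA genes with a mean under 10 reads had between 0 and 24 reads in any library, and 3 lay above and 5 below. They are named here after their values were seen. mir-8, which acts on growth in the fat body of flies, had 3 and 4 reads in Schneider's and 0 and 0 in KRB, and mir-278, tied to energy balance in flies, had 0 and 0 against 4 and 2. Neither supports a fold change, since both media were near the floor of 3 reads. mir-2a-1, of a family that targets cell death genes in flies, had 7 and 23 reads against 4 and 3 (log2 -1.48, SE 0.51, adjusted p = 0.0295, edgeR). Its call was lost with upper-quartile factors (adjusted p = 0.102), relative log expression factors (0.264) and DESeq2 (0.688), and without Schneider replicate 2 (0.177), KRB replicate 1 (0.0977) or KRB replicate 2 (0.218). mir-998, in an intron of the cell cycle gene E2f1, had 5 and 8 reads against 0 and 1, and mir-4954, in an intron of the alpha-actinin gene Actn, had 7 and 8 against 0 and 1. These low counts lay apart between the media but were too few to test.

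mir-3641, in an intron of CG3630, had 8 and 24 reads in Schneider's and 2 and 2 in KRB (log2 -2.36, SE 0.52, adjusted p = 0.0058, edgeR), and CG3630 had 232 and 618 against 71 and 85 (log2 -1.84, SE 0.23). The call of mir-3641 was lost with DESeq2 (adjusted p = 0.408) and without KRB replicate 1 (0.0521) or KRB replicate 2 (0.0665). mir-4955, in a UTR of the perlecan gene trol, had 2 and 6 reads in Schneider's and 9 and 14 in KRB (log2 2.03, SE 0.43, adjusted p = 0.0054), and lost its call with total counts (adjusted p = 0.067) and without KRB replicate 2 (1.94, adjusted p = 0.0595). mir-4974, in an intron of CG8671, had 3 and 6 reads against 10 and 12 and could not be tested. CR43650, the non-coding gene whose exon holds mir-8, had 120 and 162 reads in Schneider's and 26 and 26 in KRB (log2 -1.97, SE 0.34), and CG42524, whose UTR holds mir-278, had 114 and 101 against 305 and 304 (log2 1.89, SE 0.41), which was not called with total counts (adjusted p = 0.116).

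All 16 microRNA genes overlap another annotated gene, 15 of them on the same strand. For 9 of the 15 a surrounding gene was itself listed, giving 11 pairs with 9 host genes, and in all 11 pairs both genes lay on the same side. For tRNA genes the same held in 2 of 3 pairs on the same strand and 2 of 3 on opposite strands. Pairs share their libraries, some share a host, and every gene was picked for having changed, so these counts describe the list and were not tested. Over the 14 same-strand pairs of both classes, the ratio of small RNA reads to host reads was higher in KRB in 8, lower in 4 and overlapping in 2. Whether host reads account for the microRNA counts was not tested.

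**Figure D4:**
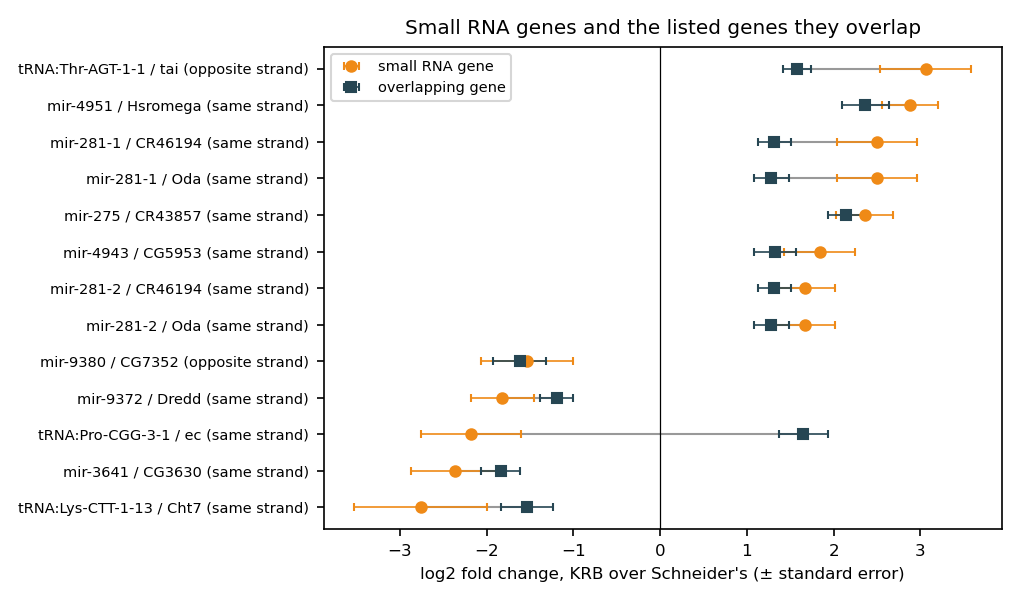
Log2 fold change in KRB over Schneider's with standard errors for each tested small RNA gene (orange circle) and the listed gene it overlaps (dark square), 1 row a pair, joined by a line. Both symbols lie on the same side of 0 in every row but that of tRNA:Pro-CGG-3-1 in ec, where they are -2.18 and 1.65.

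The genes that make, process or use these RNAs were looked up in 7 lists, and 16 of their 152 genes were listed. Of the 15 tested, 14 were called lower and 1 higher, against 53.6% and 42.3% of all tested genes, with a median log2 fold change of -1.10 against -0.92. The tRNA processing and modification list had 8 of 21 genes listed, all called lower. Among them were Rpp21 (log2 -1.60, SE 0.21), Rpp14a (-1.08) and Rpp30 (-1.06), subunits of RNase P, the enzyme that trims the leader of precursor tRNAs. Elp2 (-1.56, SE 0.16), of the Elongator complex that modifies wobble uridines, had 1007 and 1839 reads in Schneider's and 282 and 396 in KRB. Mt2 (-1.38, SE 0.23), a tRNA methyltransferase, had 137 and 333 reads against 52 and 69. With relative log expression factors the calls of Rpp14a (adjusted p = 0.139) and Rpp30 (0.191) were lost, and with DESeq2 also those of Rpp21 (0.0557) and Mt2 (0.186).

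RNA polymerase III subunits Polr3G (log2 -1.45, SE 0.24) and Polr3C (-1.10, SE 0.23) were lower, from 145 and 254 to 47 and 55 reads and from 130 and 246 to 56 and 65. Pbp49, a subunit of the complex that binds the promoters of snRNA genes in flies, was also called lower (-0.90, SE 0.17), with 569 and 1373 reads against 297 and 400, and lost its call without KRB replicate 1 (-0.70, adjusted p = 0.0517), with relative log expression factors (-0.16, adjusted p = 0.432) and with DESeq2 (-0.16, adjusted p = 0.637). Polr3G and Polr3C (listed as CG33051 and CG12267) lost theirs with relative log expression factors (adjusted p = 0.0509 and 0.225) and DESeq2 (0.163 and 0.502). These 3 were all of the 17 polymerase III machinery genes that were listed. Of 36 aminoacyl-tRNA synthetases, which load tRNAs with their amino acids, 2 were listed: alpha-PheRS (-1.24, SE 0.15) and the mitochondrial TyrRS-m (-1.15, SE 0.22). Neither was called with relative log expression factors (adjusted p = 0.0520 and 0.152) or DESeq2 (0.0911 and 0.335).

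Of 50 genes for snRNA synthesis and snRNP proteins 3 were listed. Smn, the assembly factor of snRNP cores, had 374 and 1162 reads in Schneider's and 145 and 205 in KRB (log2 -1.51, SE 0.24, adjusted p = 0.0024, edgeR), while Gem4b, a partner of Smn, had 0 and 8 against 13 and 26 (log2 2.82, SE 0.73, adjusted p = 0.0109). The call of Gem4b (listed as CG32786) was lost without KRB replicate 2 (2.51, adjusted p = 0.0857) and with total counts (1.87, adjusted p = 0.0621). Of 17 microRNA pathway genes only lin-28 was listed, with 2 and 3 reads against 8 and 7 and too few to test, and 0 of 9 signal recognition particle genes and 0 of 5 partners of 7SK were. Of the 14 lower calls over all lists, 4 remained with relative log expression factors (Rpp21, Elp2, Mt2 and Smn) and 2 with DESeq2 (Elp2 and Smn).

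**Figure D5:**
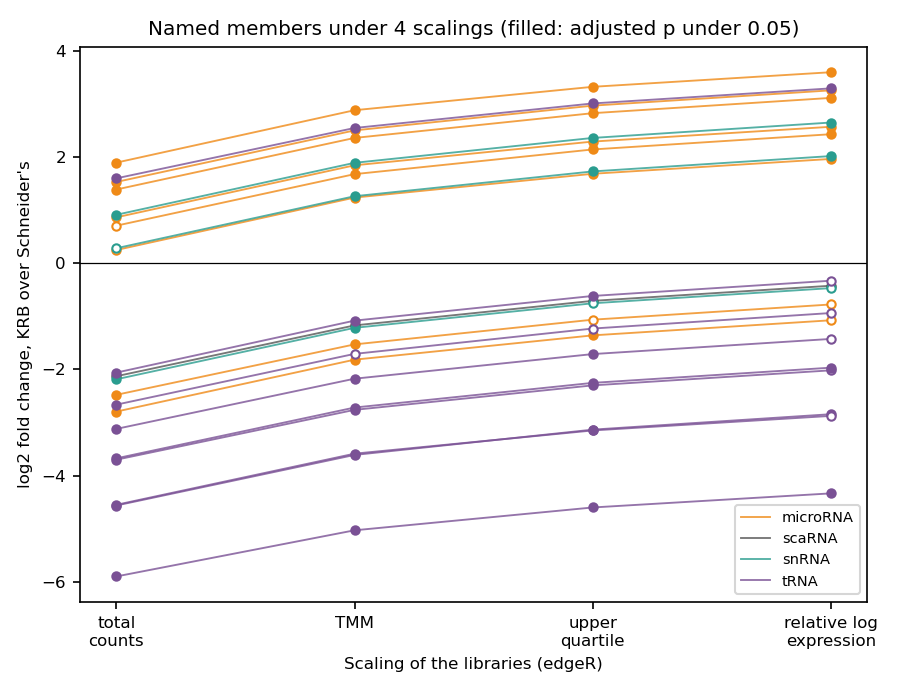
Log2 fold change in KRB over Schneider's of the 21 named small RNA genes under 4 scalings of the libraries, 1 line a gene coloured by class, with filled points for an adjusted p under 0.05. Every line moves up from left to right and 0 of the 21 crosses 0, but many of the lower genes lose their fill at the right.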

How the data were processed

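RNA of S2 cells was extracted with a column kit, depleted of rRNA and made into stranded total RNA libraries (2 biological replicates a medium, single reads of 75 nt). The authors aligned reads with STAR 2.4.0.1 to the dm6 genome, made counts per gene with their own Python 2.7 script and deposited raw counts of the genes that edgeR 3.24.3 selected. How strand and reads matching several copies were treated is not given in the sources used here. The deposited columns of fold changes and p-values were not used, beyond finding that 0 listed genes lay under an absolute log2 fold change of 1 and 0 had a p of 0.05 or more.

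Counts were tested with edgeR 4.0.16 (R 4.3.3): TMM factors, filterByExpr with a minimum count of 10, quasi-likelihood F-test, Benjamini-Hochberg adjustment, threshold 0.05. The script was tested on simulated data in which 1520 tested genes were unchanged, unlike these data, so scaling on selected genes was not tested. There it recovered 57 of 93 genes changed by a log2 of 1 and 90 of 91 changed by 2. A standard error is the absolute log2 fold change over the square root of F, and a normalized count is a count divided by its library's effective size relative to the geometric mean. Genes with 0 reads in a medium were given a bound from a floor of 3 reads a library, and exact 95% intervals cover counting error only. Positions come from Ensembl BDGP6, to which 2036 of 2049 symbols matched, 13 not. The members and lists were chosen with earlier results of these data known. Members with a mean of at least 10 reads were named with their reads, as were up to 4 called genes a direction from each list, and others were named after their values were seen. The authors call the replicates biological without describing separate cultures, so p-values measure the spread between these libraries. DESeq2 1.42.0, other scalings and filters, a replicate block and leaving out each library were alternatives.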

Additional observations from a re-analysis of the deposited data

How the results depend on the processing

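Each count is given as higher or lower in KRB. Over the 21 named small RNA genes, 252 alternative values gave 0 changes of direction, 41 lost calls and 3 gained calls. With total counts, higher calls went from 742 to 335 over all genes, from 11 to 6 over small RNA genes, from 7 to 3 over microRNA genes and from 1 to 0 over partner genes (1 at an unadjusted p under 0.05). Lower calls went from 942 over all genes to 547 with upper-quartile factors, 178 under relative log expression factors and 89 under DESeq2. For the 15 small RNA genes called lower, those settings gave 9, 4 and 2. The 8 lower tRNA calls went to 3 under relative log expression factors and 2 under DESeq2, the 4 lower microRNA calls to 2 with upper-quartile factors, 1 under relative log expression factors and 0 under DESeq2 (also 0 at an unadjusted p under 0.05), and the 14 lower partner calls to 4 and 2. With no filter, 19 small RNA genes were higher, 8 tRNA genes were higher, 7 microRNA genes lower and 2 partner genes higher. With a mean count of at least 10, 1 tRNA gene was higher and 2 microRNA genes lower. At an adjusted p under 0.01, 7 small RNA genes, 5 tRNA genes and 2 microRNA genes were lower and 0 partner genes higher. Members that overlap no other annotated gene gave 2 higher and 6 lower.

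Leaving out 1 library at a time gave between 649 and 732 higher and 549 and 898 lower over all genes, 9 to 11 higher and 5 to 16 lower over small RNA genes, 2 to 2 higher and 4 to 9 lower for tRNA genes, 5 to 7 higher and 1 to 4 lower for microRNA genes, and 0 to 1 higher and 10 to 14 lower for partner genes. The count of lower small RNA genes was 8 without Schneider replicate 2, 5 without KRB replicate 1 and 6 without KRB replicate 2. With a lone library in a medium, that library is assumed to vary like the other medium. The log2 ratio of summed reads ranged from -1.52 to -0.91 for tRNA, 0.87 to 1.61 for snRNA, -1.48 to -1.09 for scaRNA and 1.68 to 2.21 for microRNA genes. With total counts these ratios were -2.22, 0.17, -2.28 and 0.94 in that order, with relative log expression factors -0.49, 1.91, -0.57 and 2.64, and with upper-quartile factors -0.78 for tRNA, -0.85 for scaRNA and 2.36 for microRNA genes. The cause of these shifts was not tested, apart from the sum of all listed reads being set by selected genes. Replicate numbers were shared between media without a stated pairing. The difference between replicates 1 and 2 in Schneider's correlated with that in KRB at 0.307 over the 1756 tested genes. A replicate block gave 16 lower and 11 higher small RNA genes, and 751 higher and 1004 lower over all genes. The gained small RNA call was tRNA:Ser-TGA-1-1 (-1.67, adjusted p = 0.0023, edgeR).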
